A study of Mus musculus with 6 samples.

Results

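The 66 genes described here are mouse zinc finger genes with names from Zfp900 to Zfp999, taken from a deposited expression table of 55487 genes by their names. RNA-seq measured them in mouse bone marrow cells whose label is LT-HSC, the long-term haematopoietic stem cell. All 6 libraries came from mice described as Mmrn1-GFP type, so the reporter is common to both groups. The groups are 3 libraries of Mmrn1-high cells and 3 libraries of Mmrn1-low cells. Mmrn1 encodes multimerin 1, a protein of platelets and endothelium, and GFP is green fluorescent protein. The ages of the mice, the promoter of the reporter, the surface gate and any pooling of animals are not stated in the labels. Nor do the labels say that the replicates are separate mice, so the p-values rest on the spread among libraries alone, and that spread may be technical.

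Most genes of this kind encode KRAB zinc finger proteins. Each carries a row of zinc fingers, small folds in which a pair of cysteines and a pair of histidines hold a zinc ion. The row binds particular DNA sequences. In the usual model the KRAB domain at the other end of the protein binds TRIM28, which brings in the histone methyltransferase SETDB1 and heterochromatin proteins, and the bound DNA is silenced. Many of the known targets are endogenous retroviruses and other transposable elements. The genes multiply by tandem duplication, so they stand in clusters of close copies, and deletion of such clusters in mouse embryonic stem cells raises transcripts of particular retroelements.

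The coding sequences showed the structure that the family is known for. Of the 66 genes, 65 are protein-coding in GENCODE M21 (GRCm38) and Zfp939 is a transcribed unprocessed pseudogene. A script read the longest coding sequence of each and searched for cysteine and histidine codons spaced as in a classical finger, with 2 codons between the cysteines, 12 from cysteine to histidine and 3 between the histidines. This pattern occurred in 62 of the 65 coding genes, with a median of 11 fingers and a maximum of 21 in Zfp974. It was not found in Zfp972, Zfp935 or Zfp957. From one finger to the next the step was exactly 84 bases in 586 of 606 cases (96.7%). A pattern for the core of the KRAB domain was found in 61 of the 65 genes, against 273 of 21901 mouse genes (1.25%), and was missing from Zfp972, Zfp956, Zfp974 and Zfp957. One finger from the middle of the row of each of 7 genes is printed from the GENCODE transcripts, since the reading frame of the finger is what the genes share and the letters between the capitals are where their DNA contacts lie. Capitals mark the codons of the paired cysteines and histidines, and each run holds 63 bases of coding sequence on the gene's own strand.
Zfp974, chromosome 7, finger 11: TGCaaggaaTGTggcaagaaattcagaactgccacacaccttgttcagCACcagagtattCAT
Zfp945, chromosome 17, finger 10: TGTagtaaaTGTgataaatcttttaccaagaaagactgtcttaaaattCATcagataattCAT
Zfp931, chromosome 2, finger 4: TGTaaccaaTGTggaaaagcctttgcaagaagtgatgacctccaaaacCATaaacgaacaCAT
Zfp955a, chromosome 17, finger 6: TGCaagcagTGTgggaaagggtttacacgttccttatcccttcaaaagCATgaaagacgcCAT
Zfp955b, chromosome 17, finger 6: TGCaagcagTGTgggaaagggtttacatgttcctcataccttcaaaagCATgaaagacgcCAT
Zfp968, chromosome 2, finger 6: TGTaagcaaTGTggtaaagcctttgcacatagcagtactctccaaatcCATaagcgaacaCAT
Zfp969, chromosome 2, finger 6: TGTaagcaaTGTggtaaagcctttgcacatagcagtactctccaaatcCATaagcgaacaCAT

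The promoters of the genes also shared sequence that the choice by name did not use. RefSeq promoter windows (GRCm38.p6) of 250 bases before to 50 bases after the first listed start were found for 56 of the 66 genes and for 27025 mouse genes in all, leaving out the genes of 1 chromosome. The word CCAAT, searched on both strands like every word here, was in 43 of the 56 windows (76.8%) and in 37.9% of all windows. CCGGAAG, the letters of ETS factor sites, was in 14 (25.0%) against 9.12%. The GC box GGGCGG was in 21 (37.5%) against 35.9%, and the E box CACGTG in 7 (12.5%) against 7.24%. The TATA box TATAAA was in 0 of the 56 windows, against 14.2% of all windows and the YY1 word AAGATGGCG in 0 against 1.49%. None of these words contains another of them. Close copies are counted singly, so these counts are not independent. The windows of Zfp942 and Zfp943 overlap and hold the same CACGTG, and every E box window but that of Zfp933 is on chromosome 17. Zfp965, Zfp966, Zfp967, Zfp968 and Zfp973 have nearly the same sequence in their windows, and each counts for CCGGAAG. A count of all words of 14 bases in the windows found CCTGCCAGTCAGAA most often. It stood in 14 of the 56 windows (25.0%), on chromosomes 2, 5, 7 and 19, and in 42 of all 27025 windows (0.155%), 14 of which are these same windows. In all 14 it followed a CCAAT at a distance of exactly 17 bases. Since the word was picked from these promoters for being common in them, its count is a description, and close copies share it by descent. The windows of 3 genes from 3 chromosomes are printed to show the shared arrangement, with that of Zfp945, which lacks it, for contrast. Capitals mark every match to the words named, and a match is a match of letters, not a measured binding site.
Zfp931, chr2:178078376-178078675, minus strand: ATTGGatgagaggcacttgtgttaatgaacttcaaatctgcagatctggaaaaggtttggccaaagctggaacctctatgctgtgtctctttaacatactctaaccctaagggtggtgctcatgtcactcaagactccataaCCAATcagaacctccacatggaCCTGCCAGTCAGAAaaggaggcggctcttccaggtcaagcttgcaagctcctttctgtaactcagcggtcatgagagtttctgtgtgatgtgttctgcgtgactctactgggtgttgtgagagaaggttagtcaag
Zfp975, chr7:42692669-42692968, minus strand: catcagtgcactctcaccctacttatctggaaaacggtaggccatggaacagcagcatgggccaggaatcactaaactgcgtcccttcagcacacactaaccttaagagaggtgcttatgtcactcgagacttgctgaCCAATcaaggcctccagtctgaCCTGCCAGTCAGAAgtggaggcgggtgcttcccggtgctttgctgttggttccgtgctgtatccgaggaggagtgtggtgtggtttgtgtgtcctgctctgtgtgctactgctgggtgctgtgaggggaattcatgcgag
Zfp950, chr19:61140791-61141090, minus strand: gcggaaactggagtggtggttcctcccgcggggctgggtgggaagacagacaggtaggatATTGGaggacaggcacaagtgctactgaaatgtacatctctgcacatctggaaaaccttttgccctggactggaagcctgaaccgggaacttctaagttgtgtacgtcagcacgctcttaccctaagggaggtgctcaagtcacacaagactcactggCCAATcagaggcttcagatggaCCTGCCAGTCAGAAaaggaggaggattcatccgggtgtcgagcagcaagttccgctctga
Zfp945, chr17:22867085-22867384, minus strand: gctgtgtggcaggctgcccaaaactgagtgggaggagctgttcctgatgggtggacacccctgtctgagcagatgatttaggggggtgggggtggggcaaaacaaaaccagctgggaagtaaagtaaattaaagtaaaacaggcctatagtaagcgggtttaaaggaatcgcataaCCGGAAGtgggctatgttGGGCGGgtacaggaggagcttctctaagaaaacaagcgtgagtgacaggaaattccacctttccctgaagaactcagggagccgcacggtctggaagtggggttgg

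The libraries held 11595104, 30909990 and 14236755 assigned counts for Mmrn1-high replicates 1 to 3, and 16657398, 14288095 and 30180151 for Mmrn1-low replicates 1 to 3. The stem cell label was checked against its markers, and 7 of the 8 used (among them Procr, Mecom and Kit) were higher in Mmrn1-high libraries. The 8 summed to 594 to 632 CPM in Mmrn1-high against 389 to 412 CPM in Mmrn1-low libraries. Kit made up most of these sums, with means of 395 CPM in Mmrn1-high and 329 CPM in Mmrn1-low libraries. The level of Procr was small, at 12.4 CPM in Mmrn1-high and 4.34 CPM in Mmrn1-low libraries. CPM here are counts scaled to a common library total after TMM scaling, which corrects that total for composition. Cd48, Flt3 and Il7r, which common stem cell gates exclude, were present in both groups and higher in Mmrn1-high libraries. Granulocyte progenitor genes (5 of 5 lower) summed to 3340 to 3420 CPM in Mmrn1-high and 22900 to 24100 CPM in Mmrn1-low libraries. Of 7 macrophage genes all were lower, at 15.5 to 17.1 CPM in Mmrn1-high and 139 to 141 CPM in Mmrn1-low libraries, and 4 of 6 plasma cell genes were lower, at 669 to 724 CPM in Mmrn1-high and 1130 to 1260 CPM in Mmrn1-low libraries. B cell genes had 3 of 4 tested members higher, at 37.3 to 39.2 CPM in Mmrn1-high against 30.0 to 30.9 CPM in Mmrn1-low libraries. T and natural killer cell genes summed to 147 to 150 CPM in Mmrn1-high libraries against 459 to 466 CPM in Mmrn1-low libraries. Nkg7 alone had 102 ± 1.18 CPM in Mmrn1-high and 449 ± 3.11 CPM in Mmrn1-low libraries (SD, n = 3 each), while Lck, Gzmb and Klrb1c were higher in Mmrn1-high libraries and Cd3e, Cd3g and Cd3d were near 0 in both groups. Of 4 erythroid genes 1 was higher and 2 were lower, at 153 to 159 CPM in Mmrn1-high and 150 to 158 CPM in Mmrn1-low libraries. The part that such differences in cell makeup play in the zinc finger results was not tested. In bulk libraries fewer cells of a type and less RNA per cell cannot be told apart.

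The zinc finger genes were higher in Mmrn1-high cells or did not pass the test, and none was lower. Of the 66 genes, 53 had enough counts to be tested, and 31 of these (58.5%) were higher in Mmrn1-high cells, against 30.7% of all 15419 genes tested. No member was lower, against 30.5% of all genes, and 22 were not called. The median level was 6.97 CPM over the tested members and 24.1 CPM over all genes tested. No comparison with genes of like level was made. A call is a Benjamini-Hochberg adjusted p under 0.05 over all genes tested in edgeR's quasi-likelihood test, which called 61.2% of all genes in either direction. At an unadjusted p under 0.05 the same test gave 31 higher and 0 lower members, and DESeq2 gave 26 higher and 0 lower. The log2 fold change, always Mmrn1-high minus Mmrn1-low, had a median of 0.41 over the 53 members, with its middle part from 0.19 (lower quartile) to 0.70 (upper quartile), against a median of 0.005 over all genes tested. It was above 0 in 50 of 53 members (94.3%), against 50.5% of all genes. The 3 below 0 were Zfp971, Zfp941 and Zfp953, which were not called.

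The difference was visible in the libraries themselves. All 66 genes together made up 494, 496 and 498 CPM in the Mmrn1-high libraries and 377, 374 and 372 CPM in the Mmrn1-low libraries. The summed FPKM, the authors' counts per length and library total, were 113 in each Mmrn1-high library and 77.9, 79.0 and 79.1 in the Mmrn1-low libraries. The sums of the groups did not overlap on either scale. Gene by gene, every Mmrn1-high library stood above every Mmrn1-low library in 35 of the 53 tested members, against 34.1% of all genes. The opposite arrangement occurred in 0 members, against 33.7% of all genes, and the groups overlapped in 18. Of the 31 calls, 26 held in each fit that left out a library and under every alternative tried. The calls of Zfp942, Zfp960, Zfp976, Zfp985 and Zfp992 were lost in at least 1 of them. Scaling by library size alone shifted the median of all genes by 0.15. Of the called genes alone it made 66.0% higher and 34.0% lower, against 50.2% and 49.8% with TMM. Over all genes tested, 4737 were higher and 4701 lower with TMM, and 6201 and 3193 with library size alone. On that scale 38 members were higher, 0 were lower and 0 of the 53 had a log2 fold change below 0, while the distance of the members' median from that of all genes stayed at 0.409, since this scaling shifts all genes alike. That distance was 0.350 with DESeq2, and 0.383 and 0.238 on log2 FPKM with pseudocounts of 0.1 and 1.

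**Figure D1:**
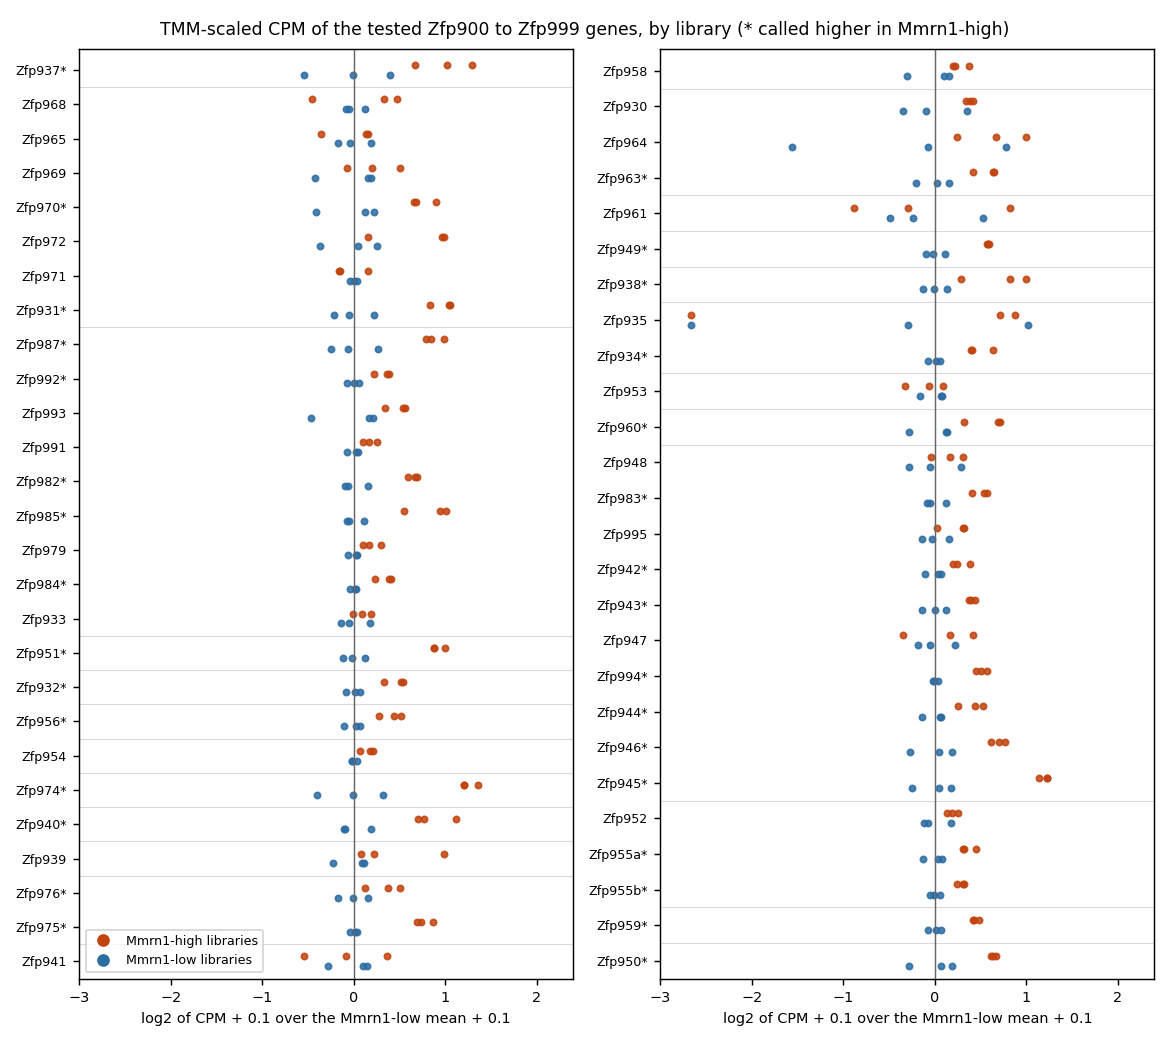
Each row is 1 of the 53 tested genes in genome order, with thin lines between clusters; the horizontal axis is the log2 of TMM-scaled CPM + 0.1 in a library over the Mmrn1-low mean + 0.1, orange points are the 3 Mmrn1-high libraries and blue points the 3 Mmrn1-low libraries, and an asterisk marks a gene called higher. The orange points lie to the right of all blue points in 35 rows, and the widest spread within a group is that of Zfp935, which had a count of 0 in a library of each group.

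Of the 53 tested members, 5 were called with a log2 fold change of at least 1, against 1736 of all 15419 genes tested (11.3%). Changes of this size were thus no more common among the members than among all genes. The largest change was that of Zfp974 (chromosome 7, 27907392 to 27929460), the gene with the longest row of fingers. It had 3.59, 3.61 and 4.02 CPM in Mmrn1-high libraries and 1.90, 1.11 and 1.50 CPM in Mmrn1-low libraries. The groups were well apart, with a log2 fold change of 1.30 ± 0.20 SE (edgeR quasi-likelihood test, Benjamini-Hochberg adjusted p = 6.19e-04). Its transcript overlaps Gm26891 on the opposite strand over 6.19% of its exon bases, and reads of an overlap cannot be assigned where the strand setting is not stated.

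Zfp945 (chromosome 17, 22846697 to 22867134) carries 18 fingers and stands at the end of the larger chromosome 17 cluster. It had 15.9, 16.0 and 15.0 CPM in Mmrn1-high libraries and 5.65, 7.67 and 6.97 CPM in Mmrn1-low libraries, a log2 fold change of 1.21 ± 0.12 SE (edgeR quasi-likelihood test, Benjamini-Hochberg adjusted p = 4.8e-05). Of the 53 members it had the smallest p, and its transcript shares almost no 75-base window with other genes (0.00977%). Zfp937, on chromosome 2 outside member clusters, had 3.02, 3.67 and 2.34 CPM in Mmrn1-high libraries and 0.952, 1.92 and 1.43 CPM in Mmrn1-low libraries. The lowest Mmrn1-high library lay only a little above the highest Mmrn1-low one, and the log2 fold change was 1.11 ± 0.27 SE. Zfp931, whose finger and promoter are printed above, had 3.35, 3.92 and 3.89 CPM in Mmrn1-high libraries and 2.16, 1.77 and 1.57 CPM in Mmrn1-low libraries (1.05 ± 0.17 SE). Zfp985 rested on 9, 34 and 15 counts in Mmrn1-high and 7, 7 and 13 counts in Mmrn1-low libraries. Its log2 fold change of 1.03 ± 0.28 SE lost the call without Mmrn1-high replicate 2 (0.92, edgeR quasi-likelihood test, Benjamini-Hochberg adjusted p = 0.0661) and with DESeq2 (0.166).

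The genes with the highest levels per length changed by less. The FPKM given here and in the next paragraph are not TMM-scaled, while the log2 fold changes beside them are. Zfp984 (chromosome 4, 147753974 to 147809788) had the highest mean FPKM, at 7.22 ± 0.494 in Mmrn1-high and 5.13 ± 0.0997 in Mmrn1-low cells (SD, n = 3 each). Its libraries held 35.4, 36.0 and 31.8 CPM in Mmrn1-high and 27.5, 27.4 and 26.4 CPM in Mmrn1-low cells, with no overlap and a log2 fold change of 0.35 ± 0.07 SE. Next came Zfp944 on chromosome 17, at 6.89 ± 0.657 FPKM in Mmrn1-high and 4.67 ± 0.387 FPKM in Mmrn1-low cells (0.40 ± 0.10 SE). Zfp954, a gene of chromosome 7 outside member clusters, had 5.99 ± 0.326 FPKM in Mmrn1-high and 4.84 ± 0.127 FPKM in Mmrn1-low cells. Its log2 fold change of 0.15 ± 0.08 SE missed the threshold, though its groups did not overlap. On log2 FPKM with a pseudocount of 0.1 it was called higher (0.30, limma-trend, Benjamini-Hochberg adjusted p = 0.00615). In Mmrn1-high cells the gap between Zfp984 and Zfp944 was smaller than the SD of either.

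The next genes in the order of levels were a mix of called and not called ones. Zfp991 had 5.68 ± 0.329 FPKM in Mmrn1-high and 4.53 ± 0.185 FPKM in Mmrn1-low cells. It was not called with TMM scaling (0.17 ± 0.08 SE), though its groups did not overlap. On log2 FPKM with a pseudocount of 0.1 it was called higher (0.32, limma-trend, Benjamini-Hochberg adjusted p = 0.00701). Zfp955a followed with 5.08 ± 0.276 FPKM in Mmrn1-high cells against 3.57 ± 0.278 FPKM in Mmrn1-low cells. Zfp956, in which the KRAB pattern was not found, had 3.99 ± 0.35 FPKM in Mmrn1-high and 2.70 ± 0.164 FPKM in Mmrn1-low cells and was higher (0.41 ± 0.09 SE). Zfp971 had 3.39 ± 0.437 FPKM in Mmrn1-high and 3.16 ± 0.0818 FPKM in Mmrn1-low cells, and Zfp959 had 3.82 ± 0.0791 FPKM in Mmrn1-high and 2.53 ± 0.127 FPKM in Mmrn1-low cells (0.45 ± 0.09 SE). The libraries of Zfp971 overlapped, those of Zfp959 did not. Among the 27 tested genes at or above the median level of 1.36 FPKM, 16 were higher, with a median log2 fold change of 0.35, and among the 26 below it 15 were higher, with a median of 0.65.

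Most of the genes stand in clusters, defined here as runs in which each start lies within 1 Mb of the next. Only the 66 genes were used for this, so a gene on its own may have other zinc finger genes nearby. The 66 genes formed 6 clusters of 3 or more, with 46 genes in all, a pair on chromosome 13 and 18 genes on their own. The counts of higher genes given for them stand beside 30.7% of all genes tested. In the largest, 16 genes within 2.34 Mb of chromosome 4 (145510759 to 147848366), 9 were tested and 5 were higher, namely Zfp987, Zfp992, Zfp982, Zfp985 and Zfp984, with a median log2 fold change of 0.35 over the 9. Zfp982, reported to favour stem cell features in mouse embryonic stem cells, had 4.74, 4.81 and 4.49 CPM in Mmrn1-high and 2.73, 2.80 and 3.27 CPM in Mmrn1-low libraries (0.66 ± 0.13 SE). All of its Mmrn1-high libraries stood above its Mmrn1-low ones. Zfp992 (0.32 ± 0.09 SE) lost its call without Mmrn1-high replicate 1 or 3 or Mmrn1-low replicate 1, with adjusted p-values of 0.0501 to 0.0614 (edgeR quasi-likelihood test, Benjamini-Hochberg). The 18 tested genes that lie among these zinc finger genes without belonging to them had 3 higher and 5 lower calls and a median of -0.13. Most of these 18 are processed pseudogenes, among them all 5 called lower. The 3 called higher were Gm13212, Znf41-ps and Gm20707. Gm13212 shares transcript windows with Zfp984 and Znf41-ps with Zfp991, and Gm20707 overlaps exons of Zfp984. The summed level of the 16 genes was 87.8, 87.6 and 84.6 CPM in Mmrn1-high and 69.9, 69.7 and 69.4 CPM in Mmrn1-low libraries.

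The chromosome 2 cluster, 10 genes within 2.71 Mb (175372436 to 178078476), had 7 tested members, of which Zfp970 and Zfp931 were higher. This share was near the 30.7% of all genes tested. Both genes stand in the last part of the cluster, as do Zfp972 and Zfp971, which were not called. Zfp970 had 3.27, 3.82 and 3.22 CPM in Mmrn1-high and 2.35, 1.48 and 2.19 CPM in Mmrn1-low libraries (0.77 ± 0.19 SE), with no overlap. The 7 members had a median of 0.23, and of the 21 other tested genes of the span 1 was called, which was lower, with a median of 0.11. Zfp972, a gene with a short coding sequence and no finger pattern, was not called at 0.80 ± 0.38 SE. It passed without Mmrn1-high replicate 2 (1.17, edgeR quasi-likelihood test, Benjamini-Hochberg adjusted p = 0.0243).

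The larger chromosome 17 cluster, 10 genes within 1.30 Mb (21567008 to 22867134), had all of its members tested, and 7 were higher, Zfp983, Zfp942, Zfp943, Zfp994, Zfp944, Zfp946 and Zfp945. Its median log2 fold change was 0.40. The summed level was 111, 109 and 110 CPM in Mmrn1-high libraries and 77.8, 76.9 and 81.4 CPM in Mmrn1-low libraries. Here the 13 other tested genes of the span also had more higher than lower calls, 9 against 2, with a median of 0.46. The 9 include the zinc finger genes Zfp758, Zfp229, Zfp760 and Zfp820. Zfp994 had 12.2, 12.7 and 13.3 CPM in Mmrn1-high and 8.88, 9.15 and 8.78 CPM in Mmrn1-low libraries (0.51 ± 0.08 SE), with no overlap. Zfp942 and Zfp943 start back to back on opposite strands. Zfp943 held its call in every fit (13.1, 13.3 and 13.7 CPM in Mmrn1-high and 11.0, 9.15 and 10.1 CPM in Mmrn1-low libraries), and Zfp942 (0.28 ± 0.08 SE) lost it without Mmrn1-low replicate 2 (0.23, edgeR quasi-likelihood test, Benjamini-Hochberg adjusted p = 0.0563) and with DESeq2 (0.0726).

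**Figure D2:**
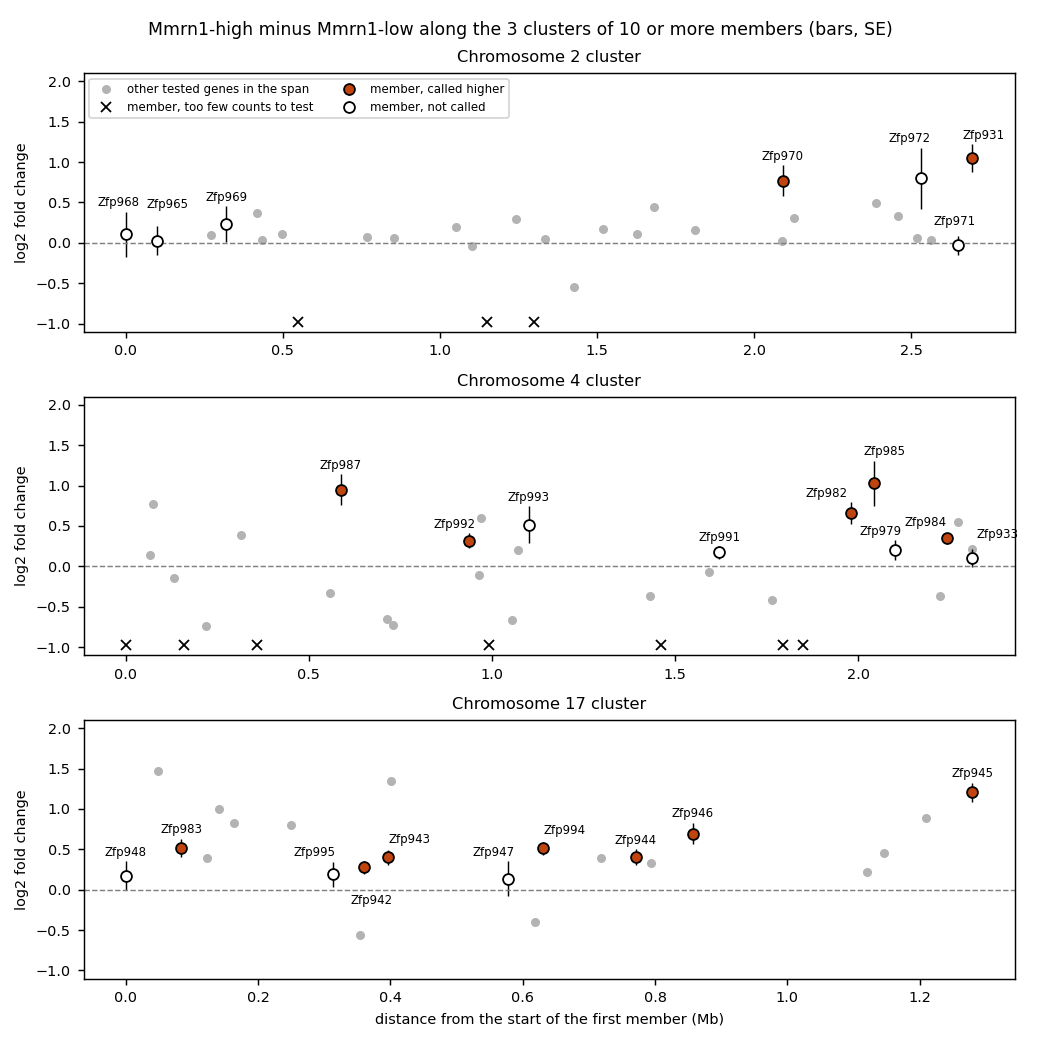
Log2 fold change (vertical axis, Mmrn1-high minus Mmrn1-low) against the distance in Mb from the first member's start in the 3 clusters of 10 or more members; filled points are members called higher, open points members not called, bars their SE, grey points other tested genes of the span and crosses members with too few counts to test, set at an arbitrary height. Members lie at or above the line at 0 apart from Zfp971, while the grey points lie on both sides of it on chromosome 4 and mostly above it on chromosome 17.

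The smaller clusters held 10 genes. On chromosome 17, near 33 Mb, Zfp952, Zfp955a and Zfp955b form a group in which the last 2 were higher. Zfp955a had 16.6, 18.2 and 16.5 CPM in Mmrn1-high and 12.2, 13.7 and 14.1 CPM in Mmrn1-low libraries (0.36 ± 0.09 SE). Zfp955b had 19.5, 19.6 and 18.6 CPM in Mmrn1-high and 15.6, 16.4 and 15.2 CPM in Mmrn1-low libraries (0.29 ± 0.07 SE). The values of the pair are not independent, because 1606 of the 1635 bases of their coding sequences are identical (98.2%), and 1 finger of each is printed above. Zfp952 was not called (0.18 ± 0.10 SE), though it passed without Mmrn1-low replicate 3 (0.29, edgeR quasi-likelihood test, Benjamini-Hochberg adjusted p = 0.036).

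On chromosome 7 (42579783 to 43192109), 2 of 4 genes were tested and both were higher. Zfp975 had 7.27, 8.20 and 7.50 CPM in Mmrn1-high and 4.32, 4.50 and 4.56 CPM in Mmrn1-low libraries (0.78 ± 0.11 SE), and the groups were far apart. Zfp976 had 7.35, 9.62 and 8.78 CPM in Mmrn1-high and 7.55, 6.71 and 5.96 CPM in Mmrn1-low libraries (0.37 ± 0.14 SE). It was the only called member whose groups overlapped, and it lost the call without Mmrn1-high replicate 2 or 3 or Mmrn1-low replicate 2 or 3, with adjusted p-values of 0.0907 to 0.148 (edgeR quasi-likelihood test, Benjamini-Hochberg).

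On chromosome 8, near 69 Mb, Zfp963 was higher with 4.66, 5.46 and 5.49 CPM in Mmrn1-high and 3.87, 3.54 and 3.00 CPM in Mmrn1-low libraries (0.61 ± 0.14 SE). It shares 40.8% of its exon bases with Gm20422 on the same strand, so part of its counts cannot be assigned with certainty. Zfp930 had 14.2, 13.7 and 14.5 CPM in Mmrn1-high and 10.1, 13.9 and 8.50 CPM in Mmrn1-low libraries and was not called (0.40 ± 0.17 SE). Its Mmrn1-low replicate 2 stood with the Mmrn1-high libraries, and without that library it passed (0.61, edgeR quasi-likelihood test, Benjamini-Hochberg adjusted p = 0.00287). Zfp964 behaved likewise, not called at 0.97 ± 0.61 SE on 4 to 33 counts and passing without the same library (1.71, edgeR quasi-likelihood test, Benjamini-Hochberg adjusted p = 0.0368).

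Of the pair on chromosome 13, Zfp934 was higher with 12.3, 10.4 and 10.5 CPM in Mmrn1-high and 8.19, 7.97 and 7.46 CPM in Mmrn1-low libraries (0.49 ± 0.10 SE). Zfp935 had 13, 0 and 14 counts in Mmrn1-high and 0, 16 and 12 counts in Mmrn1-low libraries. Libraries at 0 and libraries with over 10 counts stood side by side in both groups, and all of its exon bases lie in exons of Gm49359 or Zfp934. It was not called (0.04 ± 1.50 SE).

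Among the 18 genes on their own, meaning with no other member within 1 Mb, 11 of 17 tested were higher, and Zfp957 was not tested. Zfp932 (chromosome 5, 109996521 to 110010411), which binds endogenous retroviruses in mouse embryonic stem cells together with its close copy Gm15446, had 25.2, 25.5 and 22.1 CPM in Mmrn1-high and 16.6, 18.4 and 17.7 CPM in Mmrn1-low libraries. The groups did not overlap, with a log2 fold change of 0.47 ± 0.08 SE (edgeR quasi-likelihood test, Benjamini-Hochberg adjusted p = 0.0013). Of its 75-base transcript windows, 24.9% also occur in Gm15446. Zfp951 on the same chromosome (7.55 ± 0.362 CPM in Mmrn1-high and 3.94 ± 0.352 CPM in Mmrn1-low cells, SD, n = 3 each), Zfp940 on chromosome 7 (9.19 ± 1.46 CPM in Mmrn1-high and 4.97 ± 0.615 CPM in Mmrn1-low cells) and Zfp950 on chromosome 19 (23.6 ± 0.507 CPM in Mmrn1-high and 15.1 ± 2.48 CPM in Mmrn1-low cells) were also higher. These 3 transcripts share under 1% of their windows with other genes. Zfp949, Zfp938, Zfp960, Zfp956 and Zfp959 complete the called genes on their own, beside Zfp937 and Zfp974. Zfp960 (0.61 ± 0.19 SE), of whose windows 74.7% also occur in Zfp97, lost its call without Mmrn1-high replicate 1 or 2 or Mmrn1-low replicate 1, with adjusted p-values of 0.0606 to 0.0853 (edgeR quasi-likelihood test, Benjamini-Hochberg).

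The members with the largest p included Zfp961, Zfp965 and Zfp941. Zfp961 (chromosome 8, 71951038 to 71993792) had 6.86, 10.4 and 22.6 CPM in Mmrn1-high libraries and 18.5, 10.8 and 9.06 CPM in Mmrn1-low libraries. Each group held a library far above the others, on 84 to 338 counts, and the log2 fold change was 0.06 ± 0.55 SE. Its exons overlap Cyp4f18 on the opposite strand, and the part of that overlap in the spread was not tested. Zfp965 had 2.45, 3.55 and 3.48 CPM in Mmrn1-high and 3.62, 2.80 and 3.07 CPM in Mmrn1-low libraries (0.03 ± 0.18 SE). Zfp941 had 1.47, 1.05 and 0.737 CPM in Mmrn1-high and 1.21, 1.25 and 0.906 CPM in Mmrn1-low libraries (-0.03 ± 0.29 SE). The libraries of both genes overlapped fully. Zfp979 on chromosome 4 had 4.41, 4.62 and 5.09 CPM in Mmrn1-high and 4.19, 4.21 and 3.94 CPM in Mmrn1-low libraries. Its groups did not overlap, but the difference of 0.20 ± 0.12 SE missed the threshold.

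The remaining genes not called were Zfp968, Zfp969, Zfp993, Zfp933, Zfp939, Zfp958, Zfp953, Zfp948, Zfp995 and Zfp947, with log2 fold changes between -0.08 (Zfp953) and 0.51 (Zfp993). The SE of Zfp993 was 0.23, and its p was 0.085 after Benjamini-Hochberg adjustment in the edgeR quasi-likelihood test. Of the 13 genes not tested, Zfp986 and Zfp957 had 0 counts in all 6 libraries. The other 11 (Zfp966, Zfp967, Zfp973, Zfp990, Zfp980, Zfp981, Zfp989, Zfp988, Zfp978, Zfp977 and Zfp936) had at most 63 counts in all libraries together, and a difference in them was not detectable at this depth. Of the 13, 10 belong to the chromosome 2 and chromosome 4 clusters.

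Close copies make some of these counts uncertain. Of the 66 genes, 34 share more than 10% of their 75-base transcript windows with another gene, and 13 overlap exons of another gene. The coding sequences of Zfp966, Zfp967, Zfp968 and Zfp969 are identical over all 1455 bases, and those of Zfp965 and Zfp973 over all 954 bases. Zfp991 and Zfp992 are identical at 1711 of 1719 bases (99.5%) and Zfp987 and Zfp988 at 1805 of 1899 (95.1%). How the authors' counting divided reads between such copies is not stated in the labels. Of the 24 tested genes above 10% sharing, 15 were higher, with a median log2 fold change of 0.42. Of the 29 at or below it, 16 were higher, with a median of 0.41. The promoter word CCTGCCAGTCAGAA was present in 6 of the 28 windows of genes called higher, in 3 of the 19 of genes not called and in 5 of the 9 of genes not tested. Windows held a median of 9 CG pairs in genes called higher, 8 in genes not called and 5 in genes not tested, against 7 over all genes.

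**Figure D3:**
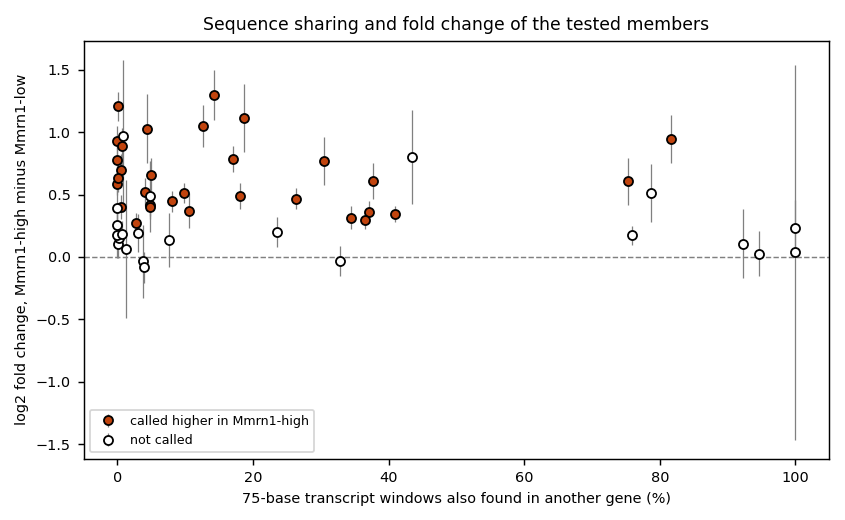
Log2 fold change (vertical axis, Mmrn1-high minus Mmrn1-low, bars SE) against the percent of a gene's 75-base transcript windows that also occur in another gene, for the 53 tested members; filled points are called higher and open points not called. Called genes occur along the axis up to 81.7% (Zfp987), and the 4 genes with a higher share were not called.

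Other zinc finger lists differed in their share of higher genes, set beside 30.7% of all genes. Of 336 other genes named Zfp with a number, 288 were tested, and 148 (51.4%) were higher in Mmrn1-high cells while 21 (7.29%) were lower, and their median log2 fold change was 0.33. Genes with SCAN domains and their KRAB relatives (Zscan and Zkscan, 20 of 30 tested) held 5 higher members (25.0%) beside 2 lower ones, around a median of 0.26. The tested genes lying among the members in the 6 clusters, 62 in all, held 18 higher ones (29.0%) beside 8 lower ones, around a median of 0.19. These neighbours include Zfp868, Zfp869, Zfp758, Zfp229, Zfp760, Zfp820, Zfp563 and Zfp763, which also belong to the list of other Zfp genes. Each of them except Zfp869 was called higher, and many of the remaining neighbours are pseudogenes. In the main test the shares of higher genes in these last 2 lists were near or below that of all genes. Both lists still leaned upward. The log2 fold change was above 0 in 17 of 20 Zscan and Zkscan genes and 46 of 62 neighbours, against 50.5% of all genes. Lower calls made up 10.0% and 12.9% of them, against 30.5% of all genes. The count of higher Zscan and Zkscan genes was 5 with relative log expression and 9 with the replicate number as a block. The differences between these lists and the 53 members were not tested.

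**Figure D4:**
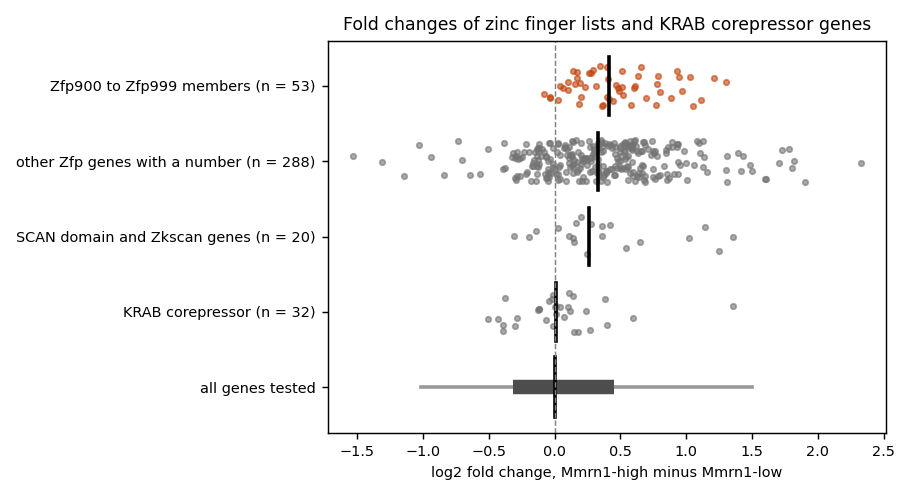
Log2 fold change (Mmrn1-high minus Mmrn1-low) of each tested gene in 4 lists, with the list's median as a vertical bar; the lowest row gives all 15419 genes tested by their median, quartiles (thick bar) and 5th to 95th percentile (thin line). The medians are 0.41 for the Zfp900 to Zfp999 genes, 0.33 for other Zfp genes, 0.26 for the SCAN and Zkscan genes, 0.01 for the KRAB corepressor genes and 0.005 for all genes.

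Genes for partners of the KRAB domain and for the silencing machinery they recruit were called in both directions. Of 33 corepressor genes, written as a list from general knowledge, 32 were tested (Atf7ip2 was not), and with TMM scaling 8 were higher in Mmrn1-high cells while 8 were lower (median 0.01). Each is 25.0% of those tested, near the 30.7% higher and 30.5% lower of all genes. With library size alone and on the FPKM scale 18 were higher and 5 lower. The calls over all genes also moved toward higher there. They were 6201 higher and 3193 lower with library size alone, against 4737 and 4701 with TMM. Trim28, the common partner, had 598, 608 and 600 CPM in Mmrn1-high and 584, 546 and 545 CPM in Mmrn1-low libraries. This small difference of 0.11 ± 0.03 SE was called (edgeR quasi-likelihood test, Benjamini-Hochberg adjusted p = 0.019), but not with DESeq2 or without Mmrn1-low replicate 2 or 3 (0.09 and 0.10). Setdb1, the methyltransferase that TRIM28 recruits, had 98.7, 97.5 and 94.5 CPM in Mmrn1-high and 97.4, 94.7 and 101 CPM in Mmrn1-low libraries. Its groups overlapped and it was not called (-0.01 ± 0.04 SE). Its sign changed between scalings, and it was called higher with library size alone (0.136, edgeR quasi-likelihood test, Benjamini-Hochberg adjusted p = 0.0184) and on the log2 FPKM scale (0.135 and 0.125, limma adjusted p = 0.0372 and 0.0371 with pseudocounts of 0.1 and 1).

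The corepressor genes with the smallest p differed in direction. Chd3, a chromatin remodeller of the NuRD complex, was higher, at 281 ± 9.40 CPM in Mmrn1-high and 110 ± 5.33 CPM in Mmrn1-low cells (SD, n = 3 each; log2 fold change 1.36 ± 0.04 SE). Trim24, a relative of TRIM28, had 38.1 ± 2.53 CPM in Mmrn1-high and 25.2 ± 1.17 CPM in Mmrn1-low cells. Atf7ip, a partner of SETDB1, had 106 ± 3.90 CPM in Mmrn1-high and 80.1 ± 3.68 CPM in Mmrn1-low cells, and Cbx1, a heterochromatin protein gene, 175 ± 6.39 CPM in Mmrn1-high cells against 145 ± 4.66 CPM in Mmrn1-low cells. Lower were Dnmt1, the maintenance DNA methyltransferase, at 539 ± 0.910 CPM in Mmrn1-high and 665 ± 8.92 CPM in Mmrn1-low cells, and Suv39h1, a histone methyltransferase, at 125 ± 2.39 CPM in Mmrn1-high and 164 ± 1.34 CPM in Mmrn1-low cells. Cbx5, another heterochromatin protein gene, had 345 ± 6.48 CPM in Mmrn1-high and 448 ± 15.0 CPM in Mmrn1-low cells. Pphln1, of the HUSH silencing complex, had 60.9 ± 3.32 CPM in Mmrn1-high and 86.5 ± 2.16 CPM in Mmrn1-low cells. The heterochromatin protein genes Cbx1 and Cbx5 thus stood on opposite sides, with log2 fold changes of 0.27 ± 0.04 SE and -0.38 ± 0.03 SE.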

How the data were processed

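RNA was measured in 6 libraries, 3 of Mmrn1-high and 3 of Mmrn1-low cells. Stranded paired-end libraries of poly-A RNA were sequenced on an Illumina NovaSeq, per the labels' protocols. The deposited table gives raw read counts per gene and FPKM values made by the authors. The submitters' processing notes list the build GRCm38 and the tools CASAVA 1.8, HISAT2, StringTie and edgeR, without their roles. The strand setting and the handling of reads that match several genes were not given in the sources used here.

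A quasi-likelihood F test in edgeR 4.0.16 (R 4.3.3) was run on the counts, robustly fitted, with TMM factors, filterByExpr and a single term for the group. P-values were adjusted by the Benjamini-Hochberg method over the 15419 genes tested, and a gene was called under 0.05. Log2 fold changes are Mmrn1-high minus Mmrn1-low, and the SE is the size divided by the square root of F. The script was tested on simulated counts. CPM are TMM-scaled, given as mean ± SD. Members were matched by name, gene models came from GENCODE M21, and 65 of 66 members had identical coordinates. Promoters came from RefSeq. Tables were made with Python 3.11.15 and pandas 2.3.3.

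The members and lists were chosen with earlier results of these data known. Members described singly were those called with a log2 fold change of at least 1, the 8 with the highest mean FPKM, the 2 with the smallest p in each cluster, the 4 with the largest p, and Zfp932, Zfp961 and Zfp979. A gene called Zfp998 was also on that rule and was not analysed here. Others are named where a count of 5 or fewer concerned them or where their values are given as examples, chosen after their values were seen. A stem cell marker is not reported here and was left out of that list's count and sums. Of the corepressor genes, the 4 with the smallest p in each direction, Trim28 and Setdb1 are described. Tried as alternatives were scaling by relative log expression or by library size alone, testing with no filter or with at least 1 CPM in 3 libraries, DESeq2 1.42.0, limma-trend (limma 3.58.1) on the authors' FPKM with pseudocounts of 0.1 and 1, protein-coding genes alone, the replicate number as a block, an adjusted p under 0.01, and leaving out each library.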

Additional observations from a re-analysis of the deposited data

How the results depend on the processing

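No member was lower under any alternative, and the count of higher members ranged from 26 (DESeq2 and an adjusted p under 0.01) to 38 (library size alone), and from 29 to 31 with a library left out. The members' median log2 fold change was 0.562 with library size alone, 0.390 with DESeq2, 0.534 and 0.325 on log2 FPKM with pseudocounts of 0.1 and 1, and 0.412 to 0.471 with a library left out. The corepressor list had 18 higher and 5 lower genes with library size alone and with either FPKM pseudocount. It had 5 higher with DESeq2 and 5 higher and 5 lower at an adjusted p under 0.01. Over all genes, library size alone gave 6201 higher and 3193 lower calls. On log2 FPKM they were 6081 and 3164 with a pseudocount of 0.1, and 6102 and 3185 with 1. The other Zfp genes had 9 lower with library size alone, 8 on either FPKM scale and 13 at 0.01. The Zscan and Zkscan genes had 12 higher with library size alone, 11 on either FPKM scale, 9 with the replicate block and 5 to 8 with a library left out. Their lower members were 0 with library size alone, on either FPKM scale and at 0.01, 1 with no filter, the 1 CPM filter, DESeq2 and the replicate block, and 0 to 2 with a library left out. The cluster neighbours had 3 lower with library size alone and on either FPKM scale, 4 at 0.01, and 10 higher and 1 lower with protein-coding genes alone, where fewer of them were tested. Apart from that, the cause of these changes was not tested. Libraries of the same replicate number showed little shared deviation (correlations of deviations 0.0426, -0.0785 and 0.0286). With 3 libraries per group this cannot show whether both groups came from the same animals, and the labels do not say. With the replicate number as a block 29 members were higher. Zfp960 and Zfp976 lost the call there, and no member gained one.

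Signs turned in named genes that were not called with TMM scaling, of which Setdb1 was then called higher with library size alone and with either FPKM pseudocount. With library size alone Zfp971, Zfp941 and Setdb1 had 0.116, 0.113 and 0.136, with a pseudocount of 0.1 on FPKM 0.091, 0.046 and 0.135, and with 1 they had 0.073, 0.013 and 0.125. Setdb1 had 0.003 with no filter and 0.005 with the 1 CPM filter. With a library left out, the ranges that crossed 0 were -0.143 to 0.031 for Zfp971, -0.574 to 1.021 for Zfp935, -0.062 to 0.168 for Zfp965, -0.221 to 0.136 for Zfp941, -0.525 to 0.437 for Zfp961 and -0.036 to 0.021 for Setdb1. Depth limits the members with few counts, and shared sequence the close copies.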
